A study of Arabidopsis thaliana with 35 samples.

Results

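The effect of adding the sln mutation to the acd15 acd21 double mutant was measured in mature pollen of Arabidopsis thaliana, ecotype Col0. The comparison set the 5 libraries of the triple mutant acd15.5 acd21.4 sln against the 5 libraries of the double mutant acd15.5 acd21.4, 10 of the 35 libraries of the series. By the labels, plants of both groups carry both acd mutations and differ by sln. The labels name no alleles, no number of independent lines and no plantings. The values are read counts per feature of poly(A) RNA, sequenced from stranded libraries, and 12106 features were abundant enough to test. In each group, replicates 1 and 2 belonged to batch 1 and replicates 3 to 5 to batch 2. The remaining 25 libraries were 5 each of sln, mbd5 mbd6, acd15.5, acd21.4 and wild-type plants. They entered the fit, and the sln, mbd5 mbd6 and wild-type libraries served to place the difference between triple and double mutant.

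Pollen is the male gametophyte, a vegetative cell that encloses the sperm cells. DNA of the vegetative cell nucleus is partly demethylated, which makes pollen sensitive to the loss of silencing factors. MBD5 and MBD6 recognise methylated CG sites through their methyl-CpG-binding domains and repress some genes and transposable elements. SLN (SILENZIO) is a J-domain protein, a type of co-chaperone that works with HSP70 chaperones. ACD15.5 and ACD21.4 are small proteins with an alpha-crystallin domain, the fold shared by small heat shock proteins. All of them belong to the MBD5 and MBD6 complexes. The title of the study names ACD15, ACD21 and SLN as regulators of MBD6 accumulation and mobility, so the question addressed here is what loss of SLN adds where both ACD proteins are already mutated.

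Total counts were 9297585 to 16481077 in triple mutant libraries and 11541958 to 17921522 in double mutant libraries. Reads in no feature were 0.217 to 0.887% in triple mutant libraries and 0.302 to 0.843% in double mutant libraries. A total of 3 libraries stood apart on the first principal component, which held 33.0% of the variance of the 10 libraries: triple mutant replicates 1 and 2 at 24.9 and -44.4, and double mutant replicate 2 at 29.4, against -13.3 to 11.5 in the other 7. Results were therefore also computed without these 3 libraries. Separate plantings are not stated for the replicates, and the p-values below measure sample-to-sample spread that may be partly technical. Unless stated otherwise, adjusted p-values are from edgeR's quasi-likelihood test with n = 5 libraries per genotype, with Benjamini-Hochberg adjustment over all 12106 features, and a feature was called at an adjusted p under 0.05. Levels are CPM, counts scaled to the size of each library. An error of a level is the SD of 5 libraries and an error of a log2 change is its SE, and a log2 change is the triple mutant over the double mutant.

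SLN (AT5G37380, chromosome 5, 14816734 to 14819346 in TAIR10.1) was examined first, as the gene whose mutation separates the groups. It had 0.220, 0.252, 0.219, 0.368 and 0.172 CPM in the triple mutant libraries, against 3.43, 3.74, 3.76, 3.84 and 4.997 CPM in the double mutant libraries. Every triple mutant library lay far below every double mutant library. The log2 change was -4.06 ± 0.26 (SE, adjusted p = 4.43e-16), and the mean of the triple mutant, 0.246 CPM, was close to that of sln (0.259 CPM), against 4.51 CPM in wild-type. Transcripts of ACD15.5 (AT1G76440) and ACD21.4 (AT1G54850) had at most 1 and 3 counts in any of the 35 libraries, so the acd genotypes could not be checked from the counts. MBD5 (AT3G46580) had at most 4 counts in any library and was not tested. MBD6 (AT5G59380) had 0.946 ± 0.278 CPM in the triple mutant and 0.890 ± 0.428 CPM in the double mutant (SD, n = 5 each), with a log2 change of 0.08 (95% interval -0.47 to 0.63, edgeR adjusted p = 0.954).

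Adding sln changed a small part of the pollen transcriptome. There were 87 features higher in the triple mutant (0.719% of those tested) and 180 lower (1.49%), and at least 2-fold changes made up 25 of the higher calls (0.207%) and 39 of the lower calls (0.322%). The 5 triple mutant values did not overlap the 5 double mutant values in 55 of the 87 higher features (63.2%) and 112 of the 180 lower ones (62.2%), against 315 of all tested features (2.60%). At an unadjusted p under 0.05 (edgeR), 667 of all tested features were higher and 865 lower. Without the 3 libraries that stood apart, 52 features were called higher and 90 lower. Without double mutant replicate 2 alone, 55 were called higher. Protein-coding genes called higher numbered 62, and 39 without triple mutant replicate 2, 35 without double mutant replicate 2 and 41 without double mutant replicate 4. Protein-coding genes called lower numbered 101, and 62 without double mutant replicate 4. Within batch 1 alone 14 features were higher and 46 lower, and within batch 2 alone 39 were higher and 74 lower.

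**Figure D1:**
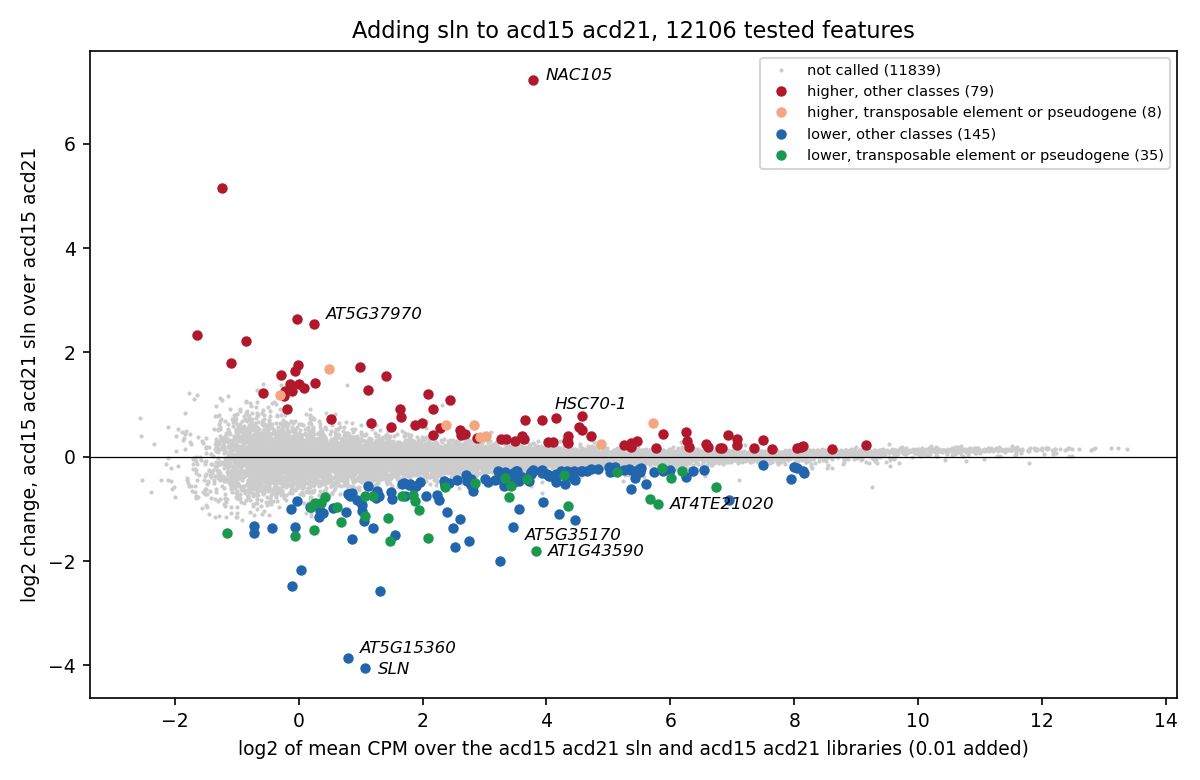
Log2 change of each of the 12106 tested features (triple over double mutant, vertical axis) against the log2 of its mean CPM over the 10 libraries (horizontal axis); coloured points are the 267 called features. NAC105 stands alone at 7.22, SLN and AT5G15360 lie lowest at -4.06 and -3.86, and 35 of the 180 lower features are transposable elements or pseudogenes, against 8 of the 87 higher ones.

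The change of NAC105 (AT5G66300, chromosome 5, 26479766 to 26481528), which encodes a NAC-type transcription factor linked to xylem vessel formation, was the largest of all called features. It had 31.4, 25.9, 23.49, 25.9 and 29.5 CPM in the triple mutant libraries, against 0.159, 0.456, 0.139, 0.0499 and 0.183 CPM in the double mutant libraries. The triple mutant libraries held 211 to 516 counts each and the double mutant libraries 1 to 5, so the groups were wide apart in every library. The log2 change was 7.22 ± 0.19 (edgeR adjusted p = 8.28e-35), a 149-fold difference in the fit. The triple mutant mean of 27.2 ± 3.16 CPM lay beside 25.8 ± 1.65 CPM in sln and 27.0 ± 2.70 CPM in mbd5 mbd6, against 5.94 ± 0.700 CPM in wild-type (SD, n = 5 each). Both single mutants, acd15.5 (0.308 CPM) and acd21.4 (0.0778 CPM), had levels near that of the double mutant.

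AT5G37970, a gene of the S-adenosylmethionine-dependent methyltransferase family, lies within 0.5 Mb of SLN (chromosome 5, 15123089 to 15124435). It had 1.98, 2.01, 2.41, 1.23 and 2.35 CPM in the triple mutant libraries, against 0.478, 0.365, 0.278, 0.349 and 0.305 CPM in the double mutant libraries. The groups did not overlap, and the log2 change was 2.54 ± 0.30 (adjusted p = 5.45e-08, edgeR). Its level in the triple mutant was near that of sln (2.12 CPM) and mbd5 mbd6 (2.39 CPM), with 1.36 CPM in acd15.5 and 0.401 CPM in acd21.4, and all of these means were below wild-type (5.62 CPM). Of 36 tested features with a RefSeq position within 0.5 Mb of SLN, AT5G37970 was the 1 called, or 2.78%. Over all features, with or without a position, 2.21% were called in either direction.

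AT4G14530, annotated as an agamous-like MADS-box protein (a family of transcription factors), had 6.10, 7.72, 6.95, 8.60 and 7.44 CPM in the triple mutant libraries, against 3.43, 3.83, 3.48, 3.44 and 3.11 CPM in the double mutant libraries. All triple mutant libraries were higher (log2 1.08 ± 0.13, adjusted p = 3.45e-08, edgeR). The level was 7.31 CPM in sln, 7.31 CPM in mbd5 mbd6, 3.97 CPM in acd15.5, 3.26 CPM in acd21.4 and 7.66 CPM in wild-type. At this gene the low level marked the acd genotypes without sln, and the triple mutant stood beside wild-type.

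AT5G35170, an adenylate kinase family protein (an enzyme type that balances adenine nucleotides), gave the opposite picture. It had 7.86, 6.29, 6.44, 5.28 and 5.15 CPM in the triple mutant libraries, against 14.66, 15.1, 14.5, 17.3 and 17.2 CPM in the double mutant libraries. All triple mutant libraries were lower (log2 -1.34 ± 0.10, adjusted p = 1.10e-13, edgeR). The means were 6.77 CPM in sln and 6.11 CPM in mbd5 mbd6, 11.5 CPM in acd15.5, 13.2 CPM in acd21.4 and 6.87 CPM in wild-type, so the triple mutant again stood beside wild-type.

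A pair of further features was high in the double mutant above all other genotypes. The pseudogene AT1G43590 (chromosome 1, 16414121 to 16414627) had 6.39, 4.78, 5.71, 7.49 and 7.10 CPM in the triple mutant libraries, against 20.2, 22.5, 22.3, 24.7 and 20.5 CPM in the double mutant libraries. Its log2 change was -1.81 ± 0.09 (edgeR adjusted p = 1.59e-19), and the other 5 genotypes had means of 5.58 CPM in sln, 8.07 CPM in mbd5 mbd6, 7.01 CPM in acd15.5, 7.07 CPM in acd21.4 and 9.74 CPM in wild-type. The high level was thus measured in no genotype other than the double mutant. AT5G15360, an uncharacterized protein-coding gene (chromosome 5, 4987437 to 4989182), had 0.220, 0.252, 0.146, 0.368 and 0.172 CPM in the triple mutant libraries, against 3.43, 2.097, 3.48, 3.74 and 3.35 CPM in the double mutant libraries. The groups did not overlap (log2 -3.86 ± 0.26, adjusted p = 1.14e-14, edgeR), and the gene had 1.79 CPM in mbd5 mbd6, 0.217 CPM in acd15.5, 0.175 CPM in acd21.4, 1 count in all 5 sln libraries and 0 counts in all 5 wild-type libraries.

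**Figure D2:**
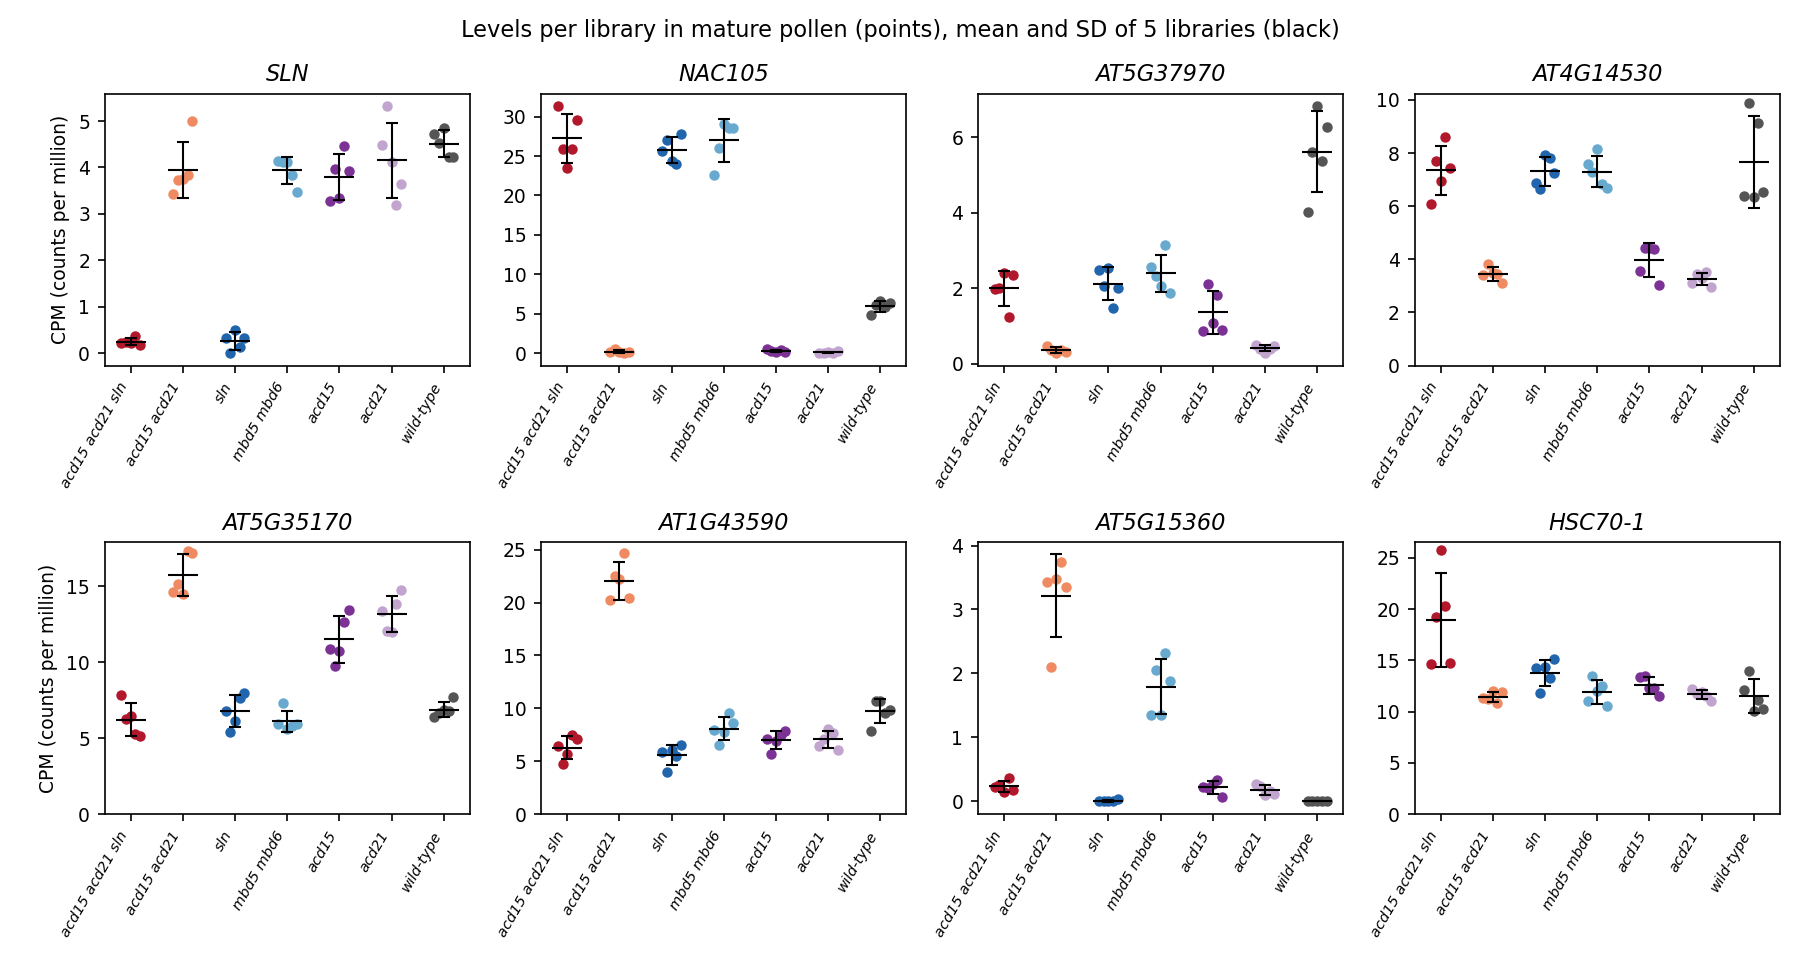
CPM per library (coloured points, vertical axes from near 0 and scaled per gene) with the mean and SD of 5 libraries (black) for 8 genes in the 7 genotypes. Triple mutant points lie with sln and mbd5 mbd6 at NAC105 and AT5G37970, beside wild-type at AT4G14530 and AT5G35170, and far below the double mutant at AT1G43590 (6.29 against 22.04 CPM) and AT5G15360 (0.232 against 3.22 CPM).

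The sequences before these genes are shown because the MBD5 and MBD6 complexes bind methylated CG sites. Each is the 300 bases before the annotated gene start, read from the RefSeq assembly TAIR10.1 on the strand of the gene, with CG dinucleotides in capitals. CG reads the same on both strands and does not overlap itself.
NAC105, chr5:26481529-26481828, minus strand: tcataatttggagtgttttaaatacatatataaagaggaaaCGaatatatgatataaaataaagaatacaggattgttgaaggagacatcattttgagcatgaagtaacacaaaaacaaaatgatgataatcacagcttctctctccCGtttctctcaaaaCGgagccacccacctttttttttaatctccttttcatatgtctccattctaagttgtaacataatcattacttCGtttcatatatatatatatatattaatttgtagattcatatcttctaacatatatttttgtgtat
AT5G37970, chr5:15124436-15124735, minus strand: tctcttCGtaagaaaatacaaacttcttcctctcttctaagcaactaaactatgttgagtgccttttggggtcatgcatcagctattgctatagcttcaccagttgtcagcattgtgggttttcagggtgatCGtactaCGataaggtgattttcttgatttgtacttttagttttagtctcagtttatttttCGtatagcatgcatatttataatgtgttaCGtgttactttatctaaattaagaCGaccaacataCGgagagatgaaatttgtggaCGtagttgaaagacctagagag
AT5G15360, chr5:4989183-4989482, minus strand: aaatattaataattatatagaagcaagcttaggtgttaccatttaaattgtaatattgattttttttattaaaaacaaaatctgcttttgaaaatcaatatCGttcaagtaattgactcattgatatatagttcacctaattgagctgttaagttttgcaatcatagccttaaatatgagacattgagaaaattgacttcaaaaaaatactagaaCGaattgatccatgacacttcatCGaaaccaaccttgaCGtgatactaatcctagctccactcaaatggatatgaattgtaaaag
AT5G35170, chr5:13418780-13419079, plus strand: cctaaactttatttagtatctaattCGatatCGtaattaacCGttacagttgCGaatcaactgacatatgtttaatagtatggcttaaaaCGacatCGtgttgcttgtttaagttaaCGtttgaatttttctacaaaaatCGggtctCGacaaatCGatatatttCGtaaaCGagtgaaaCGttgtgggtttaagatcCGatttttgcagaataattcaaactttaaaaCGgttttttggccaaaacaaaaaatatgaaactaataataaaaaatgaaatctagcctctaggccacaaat

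The windows held 4 CG in NAC105, 8 in AT5G37970, 4 in AT5G15360 and 15 in AT5G35170. Of 27007 nuclear protein-coding genes with such a window, 97.3% held at least 1 CG and the median was 6. At least 4 CG were found in 73.6% of all windows, at least 8 in 31.6% and at least 15 in 4.72%. The 62 protein-coding genes called higher had a median of 5 and the 101 called lower a median of 6, against 6 in all 9848 tested genes with a window. Methylation was not measured in these libraries.

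Further genes were higher in the triple mutant. SNRK2-8 (AT1G78290), a protein kinase of the SnRK2 family that acts in abscisic acid and osmotic stress signalling, had 2.06, 3.19, 2.19, 4.05 and 3.78 CPM in the triple mutant libraries and 0.319, 0.912, 0.974, 1.05 and 1.22 CPM in the double mutant libraries (log2 1.71 ± 0.23, adjusted p = 1.09e-06, edgeR), with no overlap. Its means were 2.59 CPM in sln and 1.26 CPM in wild-type. AT4G11440, a mitochondrial carrier family gene, had 3.07 ± 0.621 CPM in the triple mutant and 1.27 ± 0.449 CPM in the double mutant (SD, n = 5 each; log2 1.27 ± 0.18), beside 2.99 CPM in sln and 0.390 CPM in wild-type. Both genes stood in the triple mutant near their level in sln.

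ACS6 (AT4G11280), an enzyme that makes the ethylene precursor ACC, had 5.82 ± 0.846 CPM in the triple mutant and 3.16 ± 0.981 CPM in the double mutant (log2 0.92 ± 0.19, adjusted p = 0.0038, edgeR). In sln it was at 12.3 CPM, against 4.06 CPM in wild-type. ATSYTF (AT3G18370), a C2-domain protein of the synaptotagmin family, rose by a log2 of 0.92 ± 0.16, with 4.02 CPM in the triple mutant and 2.16 CPM in the double mutant. It had 7.88 CPM in mbd5 mbd6, 2.59 CPM in sln, 2.36 CPM in acd15.5, 2.37 CPM in acd21.4 and 2.63 CPM in wild-type. AT4G23380, a gene of unknown function with a DUF239 domain, rose by 1.32 ± 0.25 to 1.497 CPM in the triple mutant, against 0.610 CPM in the double mutant. AT1G71680, an amino acid transporter family gene, had 1.71 ± 0.975 CPM in the triple mutant and 0.676 ± 0.147 CPM in the double mutant (adjusted p = 0.0479, edgeR). Its call was lost in 13 of 20 alternatives, among them the fits without triple mutant replicate 1, 2 or 3 and those without any 1 double mutant replicate.

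Among more abundant genes, RDUF2 (AT5G59550), a RING-type E3 ubiquitin ligase, had 136, 135, 137, 141 and 146 CPM in the triple mutant libraries and 103, 97.4, 98.7, 113 and 110 CPM in the double mutant libraries. All triple mutant libraries were higher (log2 0.41 ± 0.05, adjusted p = 3.80e-08, edgeR). SAP7 (AT4G12040), a zinc finger protein of the stress-associated family, had 88.8 ± 3.35 CPM in the triple mutant and 63.7 ± 4.02 CPM in the double mutant (log2 0.48 ± 0.05). It had 82.5 CPM in wild-type, 76.8 CPM in sln, 84.9 CPM in mbd5 mbd6 and 63.7 CPM in both acd15.5 and acd21.4. At SAP7 the low level thus marked the acd genotypes without sln. The added coding transcript novel_Chr2_coding_53, which carries an identifier that is not in RefSeq, rose by 0.79 ± 0.07, with 30.1 CPM in the triple mutant, 17.3 CPM in the double mutant, 29.5 CPM in sln and 17.0 CPM in wild-type. The noncoding RNA gene AT1G67105 had 3.96 ± 1.87 CPM in the triple mutant and 1.36 ± 0.390 CPM in the double mutant (log2 1.55 ± 0.21), and its groups overlapped.

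The lower features included transposable elements and pseudogenes, which are often silenced by DNA methylation. Of 258 tested transposable elements 22 were lower (8.53%) and 4 higher (1.55%), and of 153 pseudogenes 13 were lower (8.50%) and 4 higher (2.61%), against 1.03% lower and 0.63% higher among 9849 protein-coding genes. Transposable elements and pseudogenes together made up 35 of the 180 lower features. The median log2 change was -0.12 over the transposable elements and -0.06 over the pseudogenes, against -0.0029 over all features. Reads with several alignments cannot be traced in the tables, so values of single repeated elements are uncertain. Without triple mutant replicate 2 or 4 the pseudogenes called higher fell to 2, likewise without double mutant replicate 1, and without double mutant replicate 3 or 5 to 1.

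AT4TE21020 was the transposable element with the smallest p. It had 37.0, 35.6, 37.6, 40.9 and 42.1 CPM in the triple mutant libraries, against 66.3, 71.4, 69.6, 76.1 and 77.7 CPM in the double mutant libraries. The groups were clearly separated (log2 -0.90 ± 0.06, adjusted p = 5.07e-16, edgeR), and the triple mutant mean of 38.6 CPM lay below 48.9 CPM in sln, 53.9 CPM in mbd5 mbd6, 65.9 CPM in acd15.5 and 70.2 CPM in acd21.4 and above 14.9 CPM in wild-type. AT4TE15500 had 2.11 ± 0.400 CPM in the triple mutant and 6.35 ± 0.735 CPM in the double mutant (log2 -1.56 ± 0.16), and AT2TE20670 had 1.37 ± 0.228 CPM and 4.20 ± 0.525 CPM in the same order (log2 -1.61 ± 0.14). Of the 4 elements that rose, AT4TE08980 changed most, with 2.13 ± 0.458 CPM in the triple mutant and 0.662 ± 0.270 CPM in the double mutant (log2 1.69 ± 0.28, adjusted p = 7.27e-05, edgeR). It was as high in acd15.5 (2.28 CPM), but low in acd21.4 (0.427 CPM), sln (0.912 CPM), mbd5 mbd6 (0.590 CPM) and wild-type (0.657 CPM). The element AT3TE47740 had 8.55 CPM in the triple mutant and 5.67 CPM in the double mutant, and AT3TE60870 had 6.32 CPM and 4.10 CPM in the same order. The fourth, AT4TE10320, had 31.8 ± 2.10 CPM in the triple mutant and 26.9 ± 2.19 CPM in the double mutant, with overlapping groups and a call that was lost in 11 of 20 alternatives. Among the lower elements AT5TE39425 had 31.7 ± 2.06 CPM in the triple mutant and 38.9 ± 2.10 CPM in the double mutant (log2 -0.30 ± 0.06), beside 35.4 CPM in sln and 8.61 CPM in wild-type, and its call was lost in each batch alone and without the 3 libraries that stood apart.

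As a share of all counts, transposable elements took 0.377 ± 0.0318% in the triple mutant and 0.424 ± 0.0325% in the double mutant, with libraries from 0.337 to 0.423% in the triple mutant and from 0.380 to 0.470% in the double mutant. The difference was -0.0465 percentage points, -0.0329 within batch 1 and -0.0556 within batch 2. An exact permutation test within batches gave p = 0.05 (2-sided, 120 arrangements, smallest possible p 0.0167) and an adjusted p of 0.4 over the 8 shares compared. Pseudogenes took 0.442 ± 0.0248% in the triple mutant and 0.475 ± 0.0297% in the double mutant (exact permutation p = 0.1, adjusted p = 0.4). The difference in summed share did not pass the adjusted test for either class, and none of the 8 shares did. At the smallest possible p, at least 3 of the 8 shares would have to reach it for any to pass, so this says little about whether the shares differ.

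The pseudogene AT1G35115 was higher, with 64.3 ± 7.95 CPM in the triple mutant and 40.9 ± 4.11 CPM in the double mutant (log2 0.65 ± 0.07, adjusted p = 7.20e-08, edgeR), beside 30.7 CPM in sln and 18.2 CPM in wild-type. AT1G35115 had 54.6 CPM in acd15.5, 50.3 CPM in mbd5 mbd6 and 19.7 CPM in acd21.4. AT2G06890 was lower, with 1.64 ± 0.368 CPM in the triple mutant, against 3.76 ± 0.702 CPM in the double mutant (log2 -1.17 ± 0.17). Its means were 3.63 CPM in acd15.5, 4.16 CPM in acd21.4, 0.902 CPM in sln, 0.378 CPM in mbd5 mbd6 and 1.06 CPM in wild-type. AT4G06608 had 0.618 CPM in the triple mutant and 1.73 CPM in the double mutant, and it had 0 counts in every wild-type library. AT1G32040 had 0.890 CPM and 2.30 CPM in the same order, against 0.0634 CPM in wild-type. The other pseudogenes that rose were AT5G35932, with 1.15 CPM in the triple mutant and 0.454 CPM in the double mutant, AT2G38520, with 9.19 and 7.02 CPM in the same order, and MUG4 (AT5G16505), a gene of the MUSTANG family that derives from transposases, with 8.58 and 6.65 CPM. Their calls were lost in 13, 11 and 6 of 20 alternatives.

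A list of features that rise when MBD complexes are impaired was taken from libraries that are not in this comparison. There, the 492 features higher in mbd5 mbd6 than in wild-type were 4.06% of those tested and the 171 lower ones 1.41%. A total of 327 tested features were higher both in mbd5 mbd6 and in sln than in wild-type. Of these 327 features, 57 were lower in the triple mutant than in the double mutant (17.4%, against 1.49% of all features) and 13 were higher (3.98%, against 0.719%). The median log2 change was -0.16, and 242 of the 327 lay below 0. The share called lower was larger among features with a larger rise in mbd5 mbd6: 51 of 244 with a log2 rise of at least 1 (20.9%), 45 of 162 with at least 2 (27.8%) and 35 of 106 with at least 3 (33.0%). By class, 17 of 69 transposable elements (24.6%), 9 of 45 pseudogenes and 17 of 87 added noncoding transcripts (19.5%) of this list were lower. Of its 85 protein-coding genes 3 were lower (3.53%) and 5 higher (5.88%). The 51 features lower in both mbd5 mbd6 and sln held 6 lower calls in the triple mutant (11.8%, against 1.49% of all features) and 3 higher calls (5.88%, against 0.719%). Their median log2 change was -0.10, and 32 of the 51 lay below 0. Larger shares of lower and of higher calls than over all features were thus found in both lists.

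**Figure D3:**
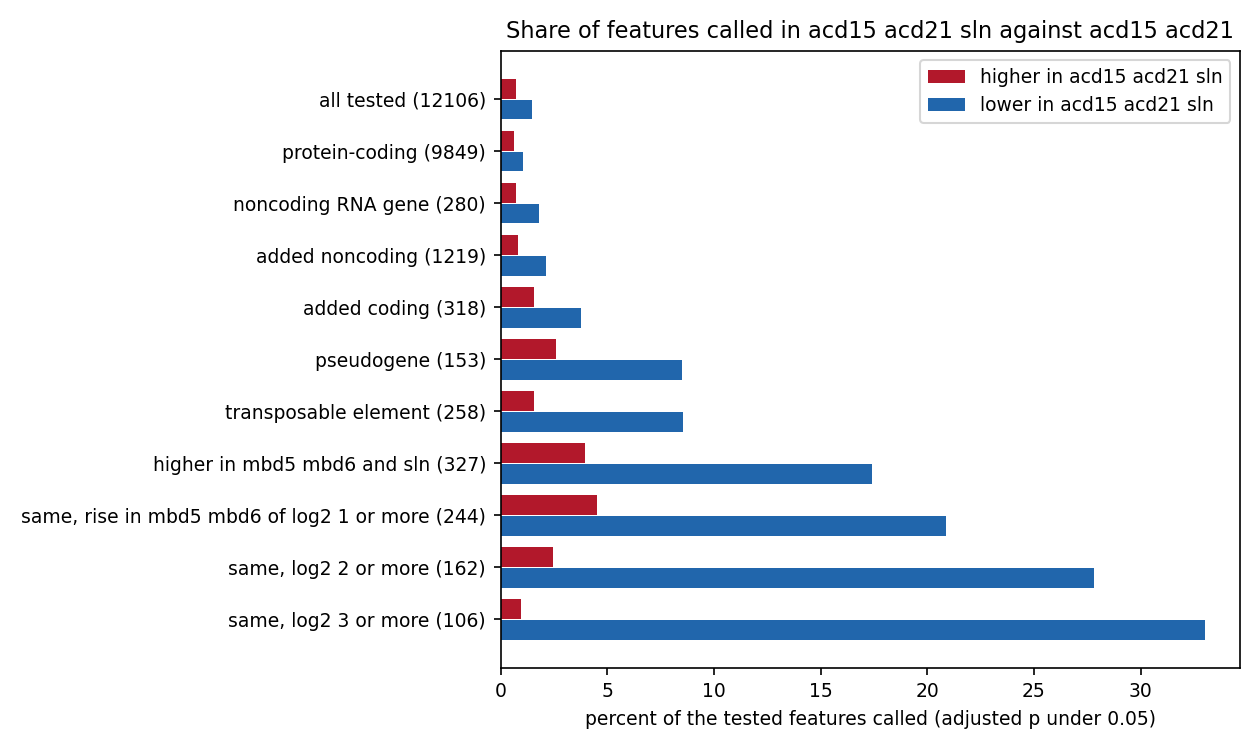
Percent of tested features called higher (red) and lower (blue) in the triple mutant, by class and for features higher in both mbd5 mbd6 and sln than in wild-type; the number tested stands in parentheses. Lower calls make up 8.53% of transposable elements and 33.0% of the features with the largest rise in mbd5 mbd6, against 1.49% of all features.

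Single features of the list that were called lower are given next. Features were named for small p-values or large called changes, so the values do not show the typical change of the list. Of the 327 features 257 were not called, among them AT3G31470 (log2 -0.03), which is described below. The added coding transcript novel_Chr4_coding_55 had 89.6, 86.7, 94.5, 91.7 and 82.1 CPM in the triple mutant libraries, against 140, 164, 172, 154 and 164 CPM in the double mutant libraries. The groups were separate (log2 -0.84 ± 0.08, adjusted p = 2.09e-09, edgeR), and the level was 110 CPM in sln, 119 CPM in mbd5 mbd6 and 1.67 CPM in wild-type. The pseudogene AT4G07498 had 85.4 ± 9.999 CPM in the triple mutant and 127 ± 5.83 CPM in the double mutant (log2 -0.57 ± 0.07), beside 74.8 CPM in sln and 5.55 CPM in wild-type. AT4G06688, annotated as a myosin heavy chain-like protein, had 10.9 ± 2.70 CPM in the triple mutant and 19.985 ± 0.904 CPM in the double mutant (log2 -0.86 ± 0.10), beside 13.5 CPM in sln and 0.796 CPM in wild-type. At all 3 of these the triple mutant lay below the double mutant and far above wild-type.

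Larger relative decreases were found at lower levels, at features named for the size of their called change. The added coding transcript novel_Chr4_coding_54 had 3.78 ± 1.17 CPM in the triple mutant and 15.1 ± 1.06 CPM in the double mutant (log2 -2.00 ± 0.15, adjusted p = 3.73e-12, edgeR), beside 7.66 CPM in sln and 1 count in all wild-type libraries. The added coding transcript novel_Chr3_coding_275 had 0.688 ± 0.237 CPM in the triple mutant and 4.28 ± 0.967 CPM in the double mutant (log2 -2.58 ± 0.21), beside 0.761 CPM in sln and 0 counts in wild-type. The noncoding transcript novel_Chr3_noncoding_796 had 3.41 CPM in the triple mutant, 10.01 CPM in the double mutant, 2.95 CPM in sln and 0.225 CPM in wild-type. The noncoding transcript novel_Chr5_noncoding_631 had 2.78 CPM in the triple mutant, 8.73 CPM in the double mutant, 5.73 CPM in sln and 1.33 CPM in wild-type. At these transcripts the triple mutant was close to sln or below it. AT1G62760, an invertase and pectin methylesterase inhibitor family gene, had 0.899 ± 0.209 CPM in the triple mutant and 2.73 ± 0.435 CPM in the double mutant (log2 -1.58 ± 0.20). Its level was 0.629 CPM in sln, 0.432 CPM in acd15.5, 0.683 CPM in acd21.4, 2.86 CPM in mbd5 mbd6 and 1.97 CPM in wild-type. The low level of AT1G62760 was thus not limited to genotypes with sln.

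Of 6 tested loci followed as readouts of the MBD complexes, NAC105 and AT5G37970 rose, SYP122 fell, and FWA, AT1G67750 and RIF10 were not called. In mbd5 mbd6, AT5G37970 and RIF10 were lower than in wild-type (log2 -1.23 and -1.51, edgeR adjusted p = 8.91e-08 and 6.22e-07). NAC105, SYP122, FWA and AT1G67750 were higher there than in wild-type. The rise of AT5G37970 in the triple mutant was thus toward its wild-type level. FWA (AT4G25530), a homeobox gene silenced by DNA methylation, had 8.60, 11.4, 11.3, 9.21 and 10.1 CPM in the triple mutant libraries, against 8.92, 8.11, 7.58, 9.23 and 7.92 CPM in the double mutant libraries. The groups overlapped, and the log2 change of 0.27 (95% interval 0.08 to 0.47) did not pass (adjusted p = 0.162, edgeR). AT1G67750, a pectate lyase family gene, had 623 ± 25.9 CPM in the triple mutant and 673 ± 36.1 CPM in the double mutant (log2 -0.11, 95% interval -0.21 to -0.0089, adjusted p = 0.337, edgeR). The level in sln was 9.89 CPM and that in wild-type 4.47 CPM, so the triple mutant stood with the double mutant and not with sln.

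The transposable element AT3TE51735 had 65.2 ± 6.44 CPM in the triple mutant and 75.4 ± 5.57 CPM in the double mutant (log2 -0.21 ± 0.06, adjusted p = 0.0773, edgeR), beside 8.26 CPM in sln and 0.134 CPM in wild-type. SYP122 (AT3G52400), a syntaxin of membrane fusion, had 10.5, 9.64, 10.5, 9.82 and 13.9 CPM in the triple mutant libraries, against 13.9, 15.68, 13.4, 14.8 and 19.3 CPM in the double mutant libraries. Its log2 change was -0.47 ± 0.10 (edgeR adjusted p = 0.00159), a call that was lost in each batch alone, and 1 triple mutant library reached into the range of the double mutant. In sln it had 0.0991 CPM and in wild-type 0.105 CPM. The neighbouring pseudogenes AT3G31470 and AT3G31475 had 116 ± 12.8 and 154 ± 4.63 CPM in the triple mutant, against 118 ± 8.58 and 153 ± 5.46 CPM in the double mutant, and neither passed (adjusted p = 0.922 and 0.982, edgeR). RIF10 (AT3G03710), a polynucleotide phosphorylase, had 0.984 CPM in the triple mutant and 0.963 CPM in the double mutant, beside 1.102 CPM in sln and 3.41 CPM in wild-type. Both pseudogenes were near these levels in sln as well, at 119 and 133 CPM, against 6.34 and 5.11 CPM in wild-type.

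A set of 6 features was ranked first by fitted rise in mbd5 mbd6 among those also higher in sln, and 3 of them were lower in the triple mutant. Lower calls made up 1.49% of all features and 33.0% of features higher in both with a log2 rise of at least 3 in mbd5 mbd6. The 6 had 0 or 1 counts over the 5 wild-type libraries, so the rise and the rank depend on the prior count. The merged locus novel_Chr2_merged_2 had 3.67 ± 0.589 CPM in the triple mutant and 8.48 ± 0.957 CPM in the double mutant (log2 -1.19 ± 0.13, adjusted p = 1.46e-08, edgeR), novel_Chr3_noncoding_833 had 9.79 ± 1.41 CPM and 13.6 ± 1.67 CPM in the same order with overlapping groups and a call lost in each batch alone and without the 3 libraries that stood apart, and novel_Chr4_coding_54 is given above. The other 3 did not pass: the pseudogene AT2G11170 (2.97 and 3.98 CPM, adjusted p = 0.217, edgeR), novel_Chr5_noncoding_671 (2.41 and 3.68 CPM, adjusted p = 0.0801) and novel_Chr2_noncoding_225 (6.65 and 8.003 CPM, adjusted p = 0.36).

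The effect of sln in the acd15 acd21 background was set beside its effect in the wild-type background, which shares no library with it. Of the 87 features higher in the triple mutant, 24 were also higher in sln than in wild-type (27.6%, against 4.7% of all features), which is 4.22% of the 569 features higher in sln. Of the 180 lower features, 62 were higher in sln than in wild-type (34.4%, against 4.7%), which is 10.9% of those 569, and 15 were lower in sln (8.33%, against 1.61%). The difference of the sln effects was tested as an interaction. Because it contains the change of the triple over the double mutant, features chosen for that change are more likely to be called, and the counts are given as a description. It was called for 674 of all features (5.57%), for 33 of the 87 higher features (37.9%) and for 102 of the 180 lower features (56.7%).

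**Figure D4:**
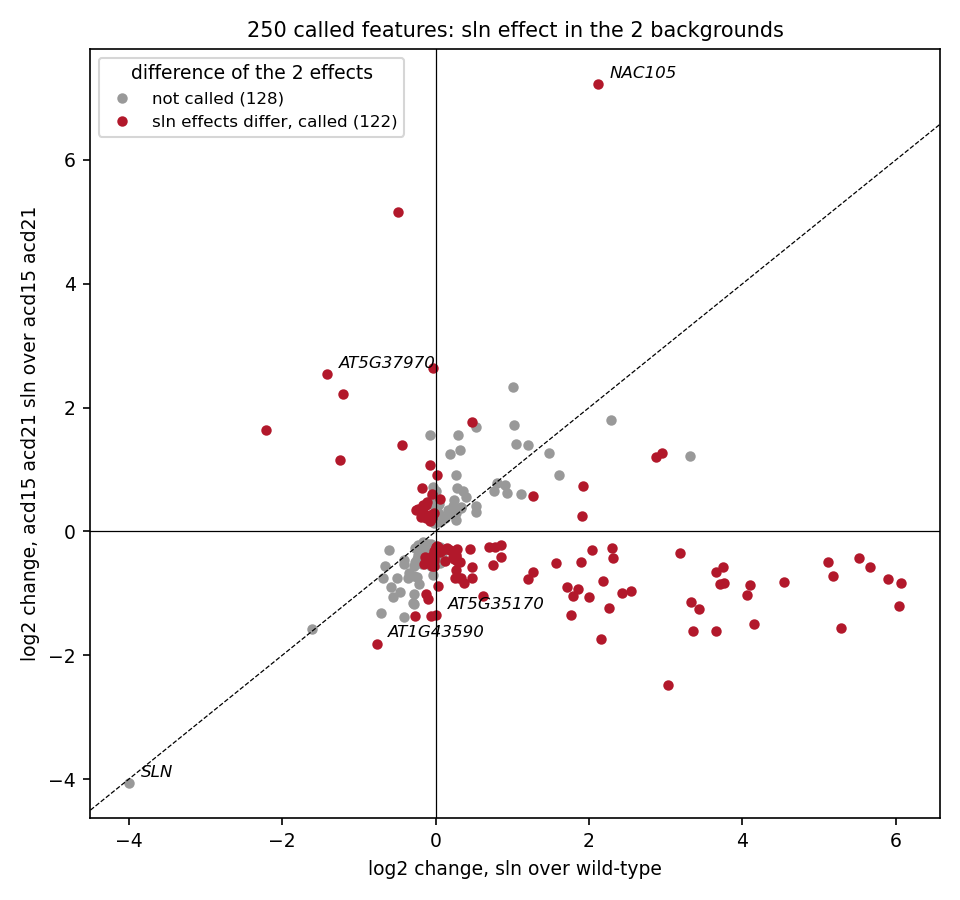
Log2 change in the triple over the double mutant (vertical axis) against log2 change in sln over wild-type (horizontal axis) for the 250 called features with more than 3 counts in both sln and wild-type; red points are the 122 whose 2 sln effects differ by the interaction test, and the dashed line marks equal effects. A group of 49 features is called lower in the triple mutant and called higher in sln, at the lower right.

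SLN itself fell in both backgrounds, by a log2 change of -4.06 in the triple over the double mutant and -3.996 in sln over wild-type, with a difference of -0.06 ± 0.45. The effects differed at NAC105 by 5.10 ± 0.28 (7.22 against 2.12 in sln over wild-type), at AT5G37970 by 3.96 ± 0.34 (2.54 against -1.41) and at AT4TE21020 by -2.62 ± 0.09 (-0.90 against 1.71). At FWA the difference was -3.03 ± 0.22 (0.27 against 3.30). AT1G62760 changed by -1.58 in the triple over the double mutant and by -1.61 in sln over wild-type, with a difference of 0.04 ± 0.28 that did not pass (adjusted p = 0.969, edgeR).

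Heat shock genes were examined because SLN is a co-chaperone and both ACD proteins share the fold of small heat shock proteins. Of 17 tested heat shock protein genes 1 was higher and none lower, against 0.719% higher and 1.49% lower of all features. The median log2 change was -0.47, against -0.0029 over all features. At an unadjusted p under 0.05 that same 1 gene passed, HSC70-1 (AT5G02500), a cytosolic HSP70 chaperone. It had 14.6, 19.2, 25.8, 20.3 and 14.71 CPM in the triple mutant libraries, against 11.3, 11.2, 12.035, 10.8 and 11.9 CPM in the double mutant libraries. All triple mutant libraries were higher and more spread (log2 0.71 ± 0.11, adjusted p = 2.13e-05, edgeR). The means were 13.8 CPM in sln and 11.5 CPM in wild-type. The near-identical neighbour HSC70-2 (AT5G02490), between which and HSC70-1 reads may be split, had 0.935 CPM in the triple mutant and 1.09 CPM in the double mutant.

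The small heat shock protein genes were expressed at low levels and varied between libraries. HSP17.4 (AT3G46230) had 4.21 ± 0.904 CPM in the triple mutant and 5.86 ± 1.28 CPM in the double mutant, with a log2 change of -0.51 (95% interval -1.42 to 0.40). HSP70-4 (AT3G12580), a heat-inducible HSP70, had 29.6 ± 5.79 CPM in the triple mutant and 33.5 ± 4.94 CPM in the double mutant (log2 -0.19, interval -0.58 to 0.19), and HSP101 (AT1G74310), a disaggregase, had a log2 change of -0.70 with an interval from -2.79 to 1.39. For HSP17.4 the interval reached past a 2-fold decrease, so a decrease of that size was not excluded. For HSP101 it reached past 2-fold in both directions, so neither a decrease nor an increase of that size was excluded. Of 14 tested heat shock factors and co-chaperones, none was called. At an unadjusted p under 0.05, 3 were lower and none higher, against 865 lower and 667 higher of all 12106 features. The 3 were ROF2 (15.48 CPM in the triple mutant and 21.9 CPM in the double mutant, adjusted p = 0.0647, edgeR), FES1A (12.4 and 15.6 CPM in the same order, adjusted p = 0.136) and DREB2A (0.304 and 0.738 CPM, adjusted p = 0.337).

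**Figure D5:**
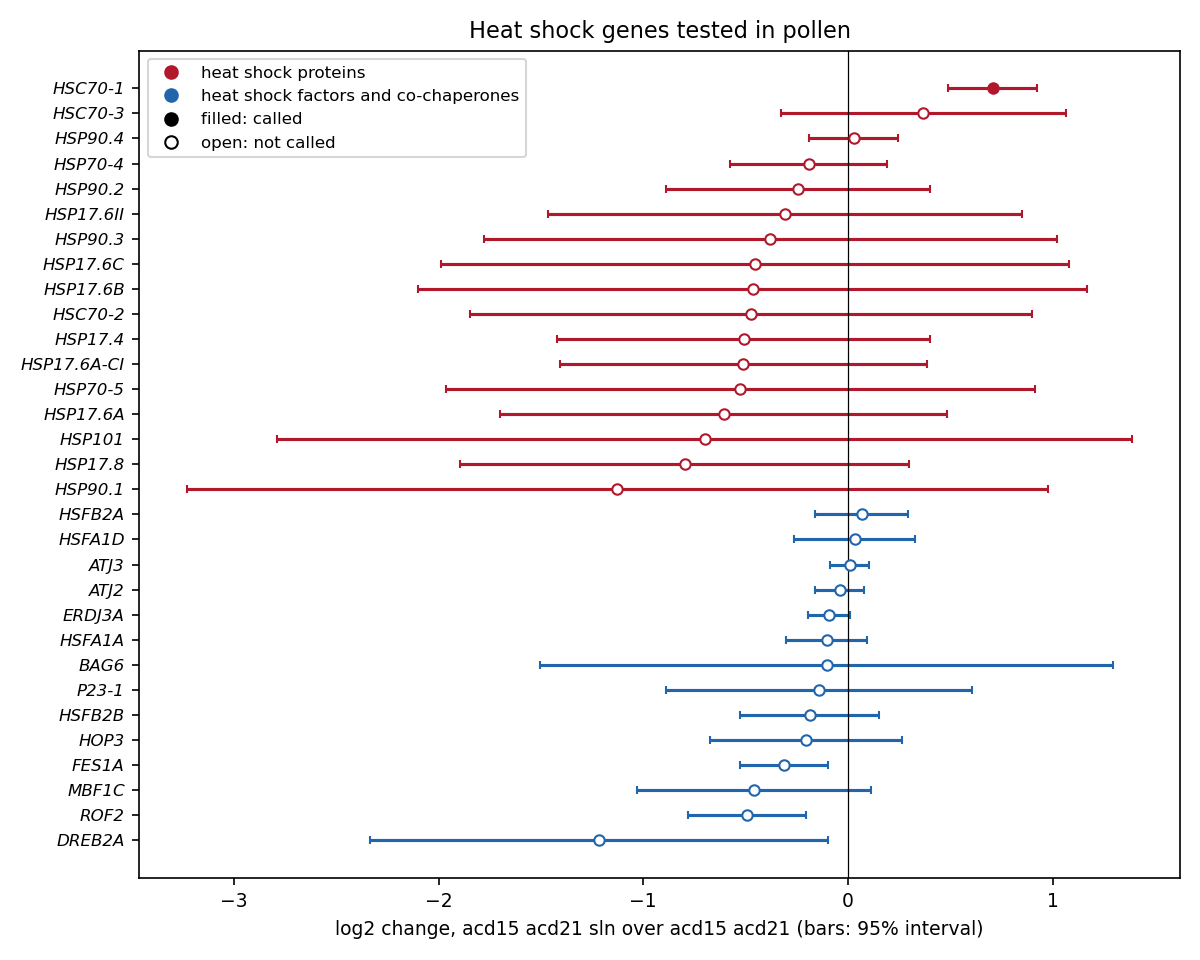
Log2 change (triple over double mutant) with its 95% interval for the 17 heat shock protein genes (red) and the 14 heat shock factors and co-chaperones (blue) that were tested; filled points are called. HSC70-1 at 0.71 is the 1 called gene, and most intervals reach across 0.

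Silencing genes were examined by list, and no listed member was called. None of 13 tested genes of DNA methylation and RNA-directed DNA methylation was called by edgeR (median log2 -0.05). At an unadjusted p under 0.05 there were 2, against 667 higher and 865 lower of all 12106 features. CLSY4 (AT3G24340), which recruits RNA polymerase IV, had 6.65 ± 0.310 CPM in the triple mutant and 8.07 ± 0.671 CPM in the double mutant. RDR2 (AT4G11130), the RNA polymerase that makes double-stranded precursors of small RNAs, had 0.374 and 0.696 CPM in the same order. No call was made among 8 other chromatin silencing genes, with none at an unadjusted p under 0.05, among 4 genes of DNA demethylation, where ROS1 (AT2G36490), a DNA glycosylase that removes methylcytosine, had 1.18 and 1.61 CPM (adjusted p = 0.395, edgeR), or among 6 genes of the MBD family, with none at an unadjusted p under 0.05. Of 2 post-transcriptional silencing genes, AGO5 had 5.53 CPM in the triple mutant and 6.605 CPM in the double mutant (adjusted p = 0.311, edgeR).

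Of 10 tested DNA damage response genes 1 was lower, against 1.49% of all features. The gene was TSO2 (AT3G27060), a small subunit of ribonucleotide reductase, which makes deoxynucleotides. It had 222, 246, 243, 261 and 242 CPM in the triple mutant libraries, against 292, 278, 277, 296 and 270 CPM in the double mutant libraries (log2 -0.22 ± 0.04, adjusted p = 0.0013, edgeR), and its call was lost without the 3 libraries that stood apart and in batch 2 alone. BRCA1 (AT4G21070) had 32.2 ± 3.63 CPM in the triple mutant and 39.6 ± 1.38 CPM in the double mutant (adjusted p = 0.099). Of 7 tested stress and jasmonate genes none was called. JAZ1 had 0.993 CPM in the triple mutant and 0.50 CPM in the double mutant, and PR5 had 4.57 and 6.26 CPM. Both had unadjusted p-values under 0.05 (edgeR), as did 667 higher and 865 lower features of all 12106.

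Marker genes of pollen cells and of other cells were measured beside these results. None of 42 tested vegetative cell and pollen tube genes was called (median log2 0.08). At an unadjusted p under 0.05 (edgeR) there were 7, against 667 higher and 865 lower of all 12106 features. The summed level of the list was 46529 to 61370 CPM in triple mutant libraries and 43284 to 56637 CPM in double mutant libraries. Of 12 tested sperm cell genes 1 was lower, against 1.49% of all features. HAP2 (AT4G11720), a protein of gamete fusion, had 22.4, 26.2, 26.4, 27.5 and 27.9 CPM in the triple mutant libraries, against 27.8, 28.7, 30.6, 33.6 and 32.7 CPM in the double mutant libraries (log2 -0.24 ± 0.06, adjusted p = 0.0171, edgeR). The groups met at the edge, and the call was lost in 7 of 20 alternatives, among them those without triple mutant replicate 1 and without double mutant replicate 4 or 5. The sperm cell genes summed to 1888 to 2360 CPM in triple mutant libraries and 2097 to 2197 CPM in double mutant libraries.

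Of 15 tested photosynthesis genes, markers of leaf cells, 1 was lower, against 1.49% of all features. RBCS3B (AT5G38410), a Rubisco small subunit of a near-identical family, had 14.8 ± 1.47 CPM in the triple mutant and 19.0 ± 1.96 CPM in the double mutant (log2 -0.37 ± 0.08, adjusted p = 0.00208, edgeR). Its call was lost in each batch alone and without the 3 libraries that stood apart. That list summed to 24.5 to 40.4 CPM in triple mutant libraries and 30.5 to 51.2 CPM in double mutant libraries. Of 13 tapetum and pollen coat genes 10 had 0 counts in all 10 libraries and none was tested. In bulk RNA, fewer cells of a type and less RNA per cell cannot be told apart. The part of cell composition in the results was not tested.

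The called features were spread over the nuclear chromosomes. Lower calls made up 1.35% of tested features on chromosome 1, 1.45% on chromosome 2, 1.52% on chromosome 3, 1.68% on chromosome 4 and 1.51% on chromosome 5. Higher calls made up 0.493, 0.643, 0.586, 1.12 and 0.88% on chromosomes 1 to 5. Within 2 Mb of SLN, 2 of 219 tested features were higher (AT5G37970 and the pseudogene AT5G35932) and 3 were lower (AT5G35170, RBCS3B and RAD23D), 2.28% in all, against 2.21% over all features. Within 1 Mb, 4 of 94 were called (4.26%), both of the higher features together with RBCS3B and RAD23D. These windows hold only features with a RefSeq position. Transposable elements, added transcripts and merged loci have none, but they are part of the 2.21%, so the shares are not of like sets.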

How the data were processed

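Poly(A) RNA of mature pollen was sequenced in 35 libraries of 7 genotypes, 5 per genotype, from 2 batches. The authors deposited whole-number read counts per feature for each library, and these counts were used unchanged. Trim Galore, STAR, HTSeq, deepTools and the TAIR10 build are named, without versions, per the submitters' processing notes. The sources used here give no multi-mapping or strand settings, so repeated, overlapping and antisense features are uncertain. The 5 HTSeq summary lines were left out of totals and tests, and the no-feature line was 0.217 to 0.887% of reads in the 10 libraries compared. Samples were grouped by the titles. Gene symbols, positions and sequences came from RefSeq TAIR10.1, and identifiers of SLN, ACD15.5 and ACD21.4 from background knowledge.

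The quasi-likelihood test of edgeR 4.0.16 (R 4.3.3, robust, TMM) was run in 1 fit of all 35 libraries with genotype and batch, after a low-count filter (filterByExpr, count at least 10, total at least 15). The interaction compared the sln effects with and without acd15 acd21. DESeq2 1.42.0 was an alternative, as were the others given in the closing section. The pipeline was checked on simulated counts. Errors of log2 changes are standard errors, and those of CPM and percentages are standard deviations. Exact permutation tests within batches were used for shares of counts. Intervals are 95%.

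Features named were first the mutated loci, the readout loci and called list members. Named too were the 12 largest called changes in each direction at a mean of at least 1 CPM and the 5 smallest p in each direction. So were the 4 largest called changes of transposable elements and of pseudogenes in each direction. The last were the 8 smallest interaction p-values and the 6 largest rises shared by mbd5 mbd6 and sln. Not all are described. The comparison, the gene lists and the readout loci were chosen with earlier results of these data known. HSP18.2, ROP1, AGL104 and GEX2 were listed but not analysed here. Among the triple mutant libraries and among the double mutant libraries, every pair differed by more than sampling noise, so none of these 10 was taken for a repeat. Same-numbered libraries showed no clear positive correlation beyond the batch, in a check that rests on few values.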

Additional observations from a re-analysis of the deposited data

Results flagged for a closer look

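Of 140 groups of 5 libraries tested for a library apart from the rest, 9 held one, and chance flags about 1 in 20 groups. In the triple mutant these were SYP122 (13.9 CPM), AT4TE08980 (2.95 CPM), novel_Chr2_coding_53 (25.9 CPM), AT3G31475 (146 CPM) and novel_Chr2_noncoding_225 (8.30 CPM). In the double mutant they were SLN (4.997 CPM), AT5G15360 (2.097 CPM), novel_Chr4_coding_54 (13.3 CPM) and AT4G07498 (137 CPM).

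The effect of sln with the acd mutations differed from its effect in the wild-type background, by the interaction test of edgeR, for 30 of 52 named and called features, against 674 of all 12106 tested (5.57%). These features were chosen for a called change that is part of the interaction, some of them for the interaction itself, so the count is a description. Where all groups held more than 3 counts, the log2 difference of the effects was 5.10 for NAC105, 3.96 for AT5G37970, 1.15 for AT4G14530, 0.90 for ATSYTF (AT3G18370), 0.66 for AT3TE60870 and 0.59 for SAP7 (AT4G12040).

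The difference was negative for AT4G11440 (-1.68), novel_Chr4_noncoding_299 (-1.67), AT1G43590 (-1.04), AT5G35170 (-1.35), AT4TE10320 (-1.66), AT5TE39425 (-2.33), AT4TE21020 (-2.62), novel_Chr5_noncoding_631 (-3.88), AT4G07498 (-4.33), AT1G32040 (-4.68), AT4G06688 (-4.95), AT2TE20670 (-4.96), novel_Chr3_noncoding_796 (-5.26), AT4TE15500 (-6.84) and novel_Chr4_coding_55 (-6.91).

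For features with 0 to 3 counts over the wild-type libraries the fitted difference depends on the prior count, so only the edgeR adjusted p of the difference is given. It was 3.06e-12 for novel_Chr3_coding_275, 5.71e-14 for novel_Chr4_noncoding_202, 2.11e-19 for novel_Chr4_coding_54, 2.04e-12 for novel_Chr2_noncoding_182, 0.000323 for AT2TE11805, 0.000309 for AT3TE53755, 3.92e-09 for AT4G06608, 4.72e-12 for novel_Chr3_noncoding_833 and 4.86e-20 for novel_Chr2_merged_2.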

How the results depend on the processing

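The counts of higher and lower features were 87 and 180, against 94 and 136 with DESeq2 (40.9% of calls higher, against 32.6%), 92 and 171 with other size factors, 82 and 220 with no low-count filter, 46 and 131 with only the 10 libraries in the fit, 14 and 46 in batch 1 alone, 39 and 74 in batch 2 alone, and 52 and 90 without the 3 libraries that stood apart (an alternative added after seeing the data). With the replicate number as a block in place of batch they were 108 and 212. Same-numbered libraries showed no clear positive correlation of their deviations from the batch mean (-0.493, -0.493, -0.0388, 0.178 and -0.0351). Batch 1 has 2 libraries per genotype, so the values of replicates 1 and 2 are equal by construction and count as 1 value. Leaving out 1 library gave 55 to 99 higher and 128 to 176 lower.

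Batch 1 alone, batch 2 alone and the fit without the 3 libraries gave 6, 12 and 13 lower transposable elements, 13, 15 and 16 lower added noncoding transcripts, 2, 4 and 6 higher ones, 19, 29 and 43 lower protein-coding genes and 7, 27 and 36 higher ones (27 in the 10-library fit). Transposable elements called higher were 1 in each batch alone. Pseudogenes called higher were 1 in batch 1 and 2 in batch 2, with the 10 libraries and without the 3, and those lower were 4 in batch 1. No heat shock protein gene was higher in batch 1 alone (0). Leaving out 1 library gave 35 to 75 higher and 62 to 109 lower protein-coding genes, 1 to 3 higher pseudogenes, and a median log2 change from -0.195 to -0.129 for the features higher in mbd5 mbd6 and sln.

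The percentage-point differences of added noncoding (0.0323), added coding (0.00666), noncoding RNA gene (0.0023) and organelle counts (0.00502, against -0.00829 in batch 1) were positive in batch 2 alone. Leaving out 1 library gave -0.0261 to 0.00992 for added coding, -0.00288 to 0.00207 for organelle and -0.151 to 0.0557 for no-feature counts.

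Of called named features, SLN, NAC105, AT5G37970, AT5G15360, AT1G43590, AT5G35170 and AT4TE21020 kept their calls under all 20 alternatives. AT3TE53755 (adjusted p = 0.0479 in the main fit, edgeR) lost its call in 14 of 19 alternatives. AT2TE11805 lost its call in batch 1 alone and without the 3 libraries that stood apart. AT4TE08980, AT1G67105, AT4G23380, AT4G14530, ACS6, ATSYTF, novel_Chr4_coding_54, HSC70-1, AT4G06608 and AT1G32040 lost theirs in batch 1 alone, AT3TE60870 in batch 2 alone and AT3TE47740 in each batch alone. The log2 change of the uncalled MBD6 (AT5G59380) changed sign in batch 2 alone (-0.172) and without the 3 libraries (-0.135), and ranged from -0.0894 to 0.343 with 1 library left out. That of RIF10 (AT3G03710) did so with DESeq2 (0.00304) and in batch 1 alone (0.626), with a range of -0.239 to 0.183. AT3G31470 gave 0.0343 in batch 1 alone and -0.0766 to 0.00483 with 1 library left out. AT3G31475 gave -0.00724 with no filter, -0.000457 in batch 1 alone and -0.00932 to 0.0232 with 1 library left out. The cause of these moves was not tested. Batch 1 has 2 libraries per genotype, which limits its calls.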

Other observations

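The genes in this paragraph were chosen after their values were seen. LDA (AT5G04360), limit dextrinase of starch breakdown, had 3.22 ± 0.829 CPM in the triple mutant and 8.06 ± 0.842 CPM in the double mutant (log2 -1.36 ± 0.13, adjusted p = 7.32e-11, edgeR), beside 3.09 CPM in sln and 3.23 CPM in wild-type. RAP2.11 (AT5G19790), an ERF-type transcription factor, had 0.809 ± 0.286 CPM in the triple mutant and 0.018 ± 0.041 CPM in the double mutant (adjusted p = 1.68e-07), beside 0.410 CPM in sln and 0.629 CPM in wild-type. At both genes the double mutant mean lay apart from those of the triple mutant, sln and wild-type. Levels in acd15.5, acd21.4 and mbd5 mbd6 are not given here, so a state particular to the double mutant was not shown. PGP10 (AT1G10680), a P-glycoprotein transporter, had 32.4 ± 2.81 CPM in the triple mutant and 49.8 ± 1.92 CPM in the double mutant (log2 -0.62 ± 0.06, adjusted p = 1.35e-10).

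Single genes given next were also picked after their values were seen, and no group was tested. TIL2 (AT2G27120), a catalytic subunit of DNA polymerase epsilon, had 36.8 ± 6.51 CPM in the triple mutant and 48.8 ± 2.16 CPM in the double mutant (adjusted p = 0.000579, edgeR). MCM3 (AT5G46280), a subunit of the replicative helicase, had 21.45 ± 2.07 and 25.8 ± 2.31 CPM in the same order (adjusted p = 0.0262). ORTHL (AT4G08590) and VIM5 (AT1G57800), members of the family of methylcytosine-binding VIM proteins, had 210 ± 13.1 and 2.92 ± 0.440 CPM in the triple mutant, against 281 ± 14.3 and 4.36 ± 0.404 CPM in the double mutant (adjusted p = 1.47e-07 and 0.0475, edgeR). The listed members VIM1, VIM2 and VIM3 of that family were not called, with log2 changes of -0.09, 0.20 and -0.05.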
